A study of Mus musculus with 9 samples.

Results

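The genes described here are the interferon regulatory factors Irf1, Irf2, Irf3, Irf4, Irf5, Irf7, Irf8 and Irf9, taken by symbol from the 46072 genes of the deposited tables. Each of the 8 symbols had 1 row, and all 8 were among the 25441 genes that could be tested. They were measured by RNA sequencing of unstimulated splenic monocytes from female C57BL/6 mice aged 8 to 10 weeks, in 9 libraries. Con mice (n = 3) were gavaged with water for 6 days, Van mice (n = 3) received vancomycin at 2 mg per mouse per day for 6 days, and VanLip mice (n = 3) received the same vancomycin course followed by L654, a lipid made by gut bacteria and sensed through TLR2, injected retro-orbitally on days 7, 9 and 11, within the rest without antibiotic that followed the gavage in all groups. The labels and the study's methods give this rest as 6 to 8 days, and its results give 8 days for the sequenced mice. Monocytes were enriched by magnetic negative selection, so the RNA is that of a bulk fraction, in which fewer cells of a type and less RNA per cell cannot be told apart. There was no group given L654 without vancomycin. The study used PBS as the vehicle in its L654 experiments, but neither the labels nor the description of the sequenced groups says whether these Con and Van mice were injected. If they were not, L654 cannot be told apart from being injected.

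Interferon regulatory factors share a helix-turn-helix DNA-binding domain that reads GAAA repeats in interferon response elements. IRF3 and IRF7 are phosphorylated downstream of nucleic acid sensors and drive interferon genes, IRF9 is the DNA-binding part of the ISGF3 complex that carries type I interferon signalling to the nucleus, and IRF1 and IRF2 act as activator and antagonist on largely the same elements. IRF4 and IRF8 bind DNA weakly alone and pair with PU.1 or BATF factors at composite elements. IRF5 drives inflammatory cytokine genes through MYD88, and IRF4 can occupy the same adaptor, for which it is known as a brake on Toll-like receptor signalling. IRF8 is required for the development of monocytes and of several dendritic cells.

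The VanLip libraries held 42625870 to 46180125 fragments against 16151327 to 23018836 in the Con and Van libraries, and their counts showed a longer read, so read length and depth cannot be told apart from the VanLip treatment. The summed level of 8 nonclassical monocyte markers was 2539 to 3534 FPKM and that of 6 classical markers 783.5 to 1871 FPKM over the 9 libraries, against 13 to 18.2 FPKM for 8 B cell markers and 0.971 to 4.81 FPKM for 8 neutrophil markers, with Ly6g at 0 in every library. FPKM counts the fragments of a gene scaled to the length of its transcripts and to the mapped fragments of the library, and is the scale used for levels. Libraries stood apart in genes that these factors control. Con 1 (replicate 1 of Con) held the highest level of 20 of the 24 listed IRF1 and interferon gamma target genes, and VanLip 3 held the highest level of 18 of the 28 listed ISGF3 target genes. VanLip 1 held the lowest level of 16 of the ISGF3 targets and of 15 of the IRF1 and interferon gamma targets. The counts and medians of these lists are given with and without the libraries concerned.

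The promoters are shown because the results turn on Irf4 and Irf8 and because interferon pathways induce several of these genes. RefSeq (GRCm38.p6) gave 11 windows of 250 bases immediately before a transcription start for the 8 genes. Both strands were searched for the interferon response element (GAAA, any 2 bases, GAAA), the composite element bound by Ets factors together with IRF4 or IRF8 (GGAA, any 2 bases, GAAA), the gamma-activated site bound by STAT dimers (TTC, any 3 bases, GAA), and the kappa-B site bound by NF-kB. Among 32851 windows of all genes these occurred in 2.98%, 2.3%, 7.02% and 7.25%, and among the 11 windows of the factors in 1, 1, 3 and 2. The 4 windows below are the ones with a match and that of Irf4, printed 5′ to 3′ with the matches in capitals.
Irf4, chr13:30748983-30749232, plus strand: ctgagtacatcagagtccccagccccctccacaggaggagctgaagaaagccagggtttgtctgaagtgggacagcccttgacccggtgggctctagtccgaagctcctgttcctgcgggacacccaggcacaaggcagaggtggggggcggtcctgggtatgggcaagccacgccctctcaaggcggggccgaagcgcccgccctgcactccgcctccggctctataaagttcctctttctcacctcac
Irf8, chr8:120736108-120736357, plus strand: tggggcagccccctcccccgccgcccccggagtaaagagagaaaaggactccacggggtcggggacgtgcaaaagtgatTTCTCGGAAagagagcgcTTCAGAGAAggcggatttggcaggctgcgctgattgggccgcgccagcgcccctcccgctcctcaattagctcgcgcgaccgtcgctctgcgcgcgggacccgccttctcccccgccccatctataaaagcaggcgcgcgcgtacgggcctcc
Irf1, chr11:53769764-53770013, plus strand: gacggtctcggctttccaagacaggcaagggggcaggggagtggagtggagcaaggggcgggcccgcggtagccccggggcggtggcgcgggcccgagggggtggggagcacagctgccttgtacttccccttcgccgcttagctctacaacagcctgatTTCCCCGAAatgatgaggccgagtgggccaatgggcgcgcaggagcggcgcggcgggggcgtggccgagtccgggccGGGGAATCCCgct
Irf2, chr8:46739495-46739744, plus strand: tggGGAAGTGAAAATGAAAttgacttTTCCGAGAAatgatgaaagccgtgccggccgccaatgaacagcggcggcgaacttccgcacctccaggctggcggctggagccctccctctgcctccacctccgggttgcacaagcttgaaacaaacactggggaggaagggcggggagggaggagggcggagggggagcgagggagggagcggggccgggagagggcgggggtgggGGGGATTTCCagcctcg
The Irf4 window held none of the 4 motifs. The Irf8 window held gamma-activated sites at 171 to 163 and at 153 to 145 bases before the start. The Irf1 window held a gamma-activated site at 90 to 82 bases and a kappa-B site at 13 to 4 bases before the start. The Irf2 window held all 4, with the interferon response element (241 to 232 bases) and the composite element (247 to 238 bases) overlapping each other. These matches describe the letters only, and no binding was measured.

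On GRCm38 (GENCODE M21), Irf4 lies on chromosome 13 (30749226 to 30766976, plus strand) and overlaps no other annotated gene. Irf8 on chromosome 8 (120736358 to 120756694) overlaps Gm20388 on the same strand, and Irf9 on chromosome 14 (55603571 to 55610030) overlaps Rnf31 on the same strand, so reads of these pairs can be exchanged by the estimation and both levels are less certain. Irf1 (chromosome 11, 53770014 to 53778374), Irf2 (chromosome 8, 46739732 to 46847458), Irf3 (chromosome 7, 44997648 to 45002848), Irf5 (chromosome 6, 29526625 to 29541871) and Irf7 (chromosome 7, 141262706 to 141266481) overlap genes on the opposite strand only. The kit marked strand, and whether the estimation used strand was not given in the sources used here.

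All 8 factors were detected in every library. Irf5 was the most abundant at 197.4 ± 1.42 FPKM in Con (SD, n = 3), followed by Irf1 (156.4 ± 53.9), Irf7 (113.0 ± 1.39), Irf8 (90.4 ± 6.10), Irf2 (58.8 ± 0.878), Irf9 (37.8 ± 0.866), Irf3 (27.9 ± 1.42) and Irf4 (6.91 ± 0.567). In Con only Irf5 and Irf1 overlapped as neighbours in this order, because Irf1 was 218.4 FPKM in Con 1 against 121.0 and 129.7 FPKM in the other two. The Van libraries kept the same order with no neighbours overlapping. In VanLip, Irf8 (109.0 ± 12.3 FPKM) stood above Irf7 (95.5 ± 20.3 FPKM), with a range that overlapped those of Irf7 and Irf1, and the other genes kept their places. Irf4 was the lowest in all 3 groups and still above 74.3% of detected genes in Con. The step from Irf3 down to Irf4 was 4.03-fold in Con, 6.20-fold in Van and 3.92-fold in VanLip. As a share of the summed FPKM of the 8 factors, Irf4 made up 0.911 to 1.14% in Con, 0.670 to 0.855% in Van and 0.945 to 1.40% in VanLip, so the Van libraries were below all others.

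**Figure D1:**
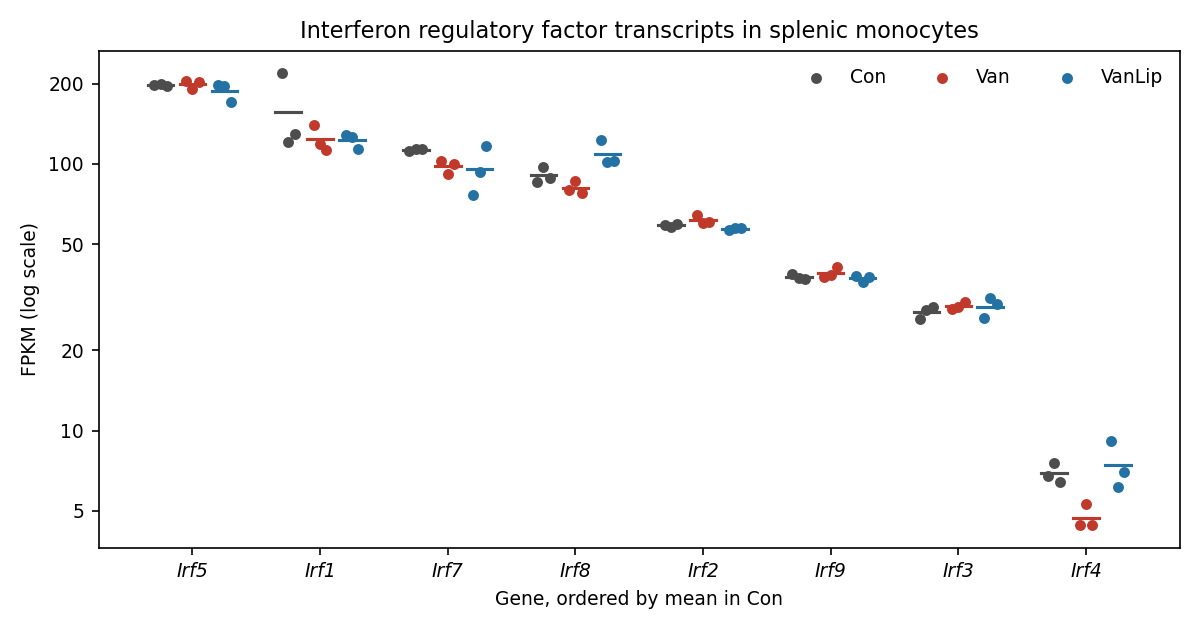
Level of each factor (FPKM, log axis) in each of the 9 libraries, with genes ordered by their mean in Con, 1 point per library and a bar at the mean of each group of 3. Irf4 sits lowest, between 4.42 and 9.14 FPKM, with all 3 Van libraries below the others, and Irf5 sits highest, between 171.0 and 203.9 FPKM.

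The Van against Con comparison asked how the vancomycin course changed the factors. Irf4 was the 1 factor of 8 called (DESeq2 Wald test, adjusted p of 0.05 or under), where 4.34% of all genes with an adjusted p were called and 2.06% were called lower. At an unadjusted p under 0.05 it was again the 1 factor, against 11.1% of all genes. Its level was 6.78, 7.53 and 6.42 FPKM in Con and 4.43, 5.31 and 4.42 FPKM in Van. The groups did not overlap, and the Van libraries were lower by a log2 value of -0.57 (SE 0.15, 95% interval -0.86 to -0.27), a 0.676-fold level (DESeq2, Benjamini-Hochberg adjusted p = 0.00949). The call was lost with edgeR (adjusted p = 0.106), which called 1.21% of all genes, with all 3 limma fits on FPKM, and in DESeq2 fits without Con 2 (-0.49, adjusted p = 0.0782) or without Van 3 (-0.52, adjusted p = 0.0793), always with the same sign. The study named Irf4 among pathway inhibitors that it selected on these same libraries, so its direction is not independent evidence here. Normalised counts (scaled by DESeq2 size factors) of Van and Con did not overlap for 3 of the 8 factors, Irf4, Irf7 and Irf8, each lower in Van, where 24.1% of all genes with a mean of at least 50 did not overlap.

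The VanLip against Van comparison asked what differed after vancomycin with the L654 injections. Irf4 and Irf8, the pair that share PU.1 as a partner, were both called higher in VanLip, 2 of 8 factors against 9.86% of all genes and 4.58% called higher. Irf4 was 9.14, 6.13 and 7.02 FPKM in VanLip, all above the Van libraries and spread around the Con values. The log2 difference between VanLip and Van was 0.65 (SE 0.15, 95% interval 0.36 to 0.95), a 1.57-fold level (DESeq2, adjusted p = 0.000582), and edgeR, which called 5.07% of all genes, called it too (0.66, adjusted p = 0.0317). It was 0.47 without VanLip 1, the highest of the 9 libraries (DESeq2, adjusted p = 0.00377). The call was lost in limma fits on log2 FPKM with either pseudocount (adjusted p = 0.108 and 0.111). This contrast and the one above share the Van libraries, so the Irf4 fall and rise are not separate observations.

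Irf8 was 80.1, 86.4 and 77.9 FPKM in Van and 123.2, 101.3 and 102.5 FPKM in VanLip, with no overlap. Its log2 difference was 0.42 (SE 0.10, 95% interval 0.23 to 0.61), a 1.34-fold level (DESeq2, adjusted p = 0.000604), and 0.43 with edgeR (adjusted p = 0.0258). VanLip 1 was the highest library for Irf8 as for Irf4, and without it the difference was 0.32 (DESeq2, adjusted p = 0.00274). All 3 limma fits lost the call (adjusted p from 0.0526 to 0.127). In Con, Irf8 was 85.8, 97.3 and 88.2 FPKM, between the other groups. Van against Con gave -0.17 (95% interval -0.36 to 0.02, DESeq2 adjusted p = 0.444), where normalised counts did not overlap but FPKM values did.

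The VanLip against Con comparison asked what still differed from water-gavaged mice after vancomycin and the L654 injections. None of the 8 factors was called by DESeq2, where 6.67% of all genes were called, nor by edgeR (1.78% of genes), and 1 of the 8, Irf8, had an unadjusted p under 0.05, where 13% of all genes did. For Irf4 the log2 difference was 0.09 (95% interval -0.21 to 0.38, DESeq2 adjusted p = 0.837), and it was -0.10 without VanLip 1. Irf8 stood higher in all 3 VanLip libraries than in any Con library, by 0.25 on the log2 scale (95% interval 0.06 to 0.45, DESeq2 adjusted p = 0.101). Irf2 was lower in all 3 VanLip libraries than in Con, by a log2 value of -0.06, and these 2 of 8 compare with 24.5% of all genes whose normalised counts did not overlap. Over the 3 groups together, the DESeq2 likelihood-ratio test called Irf4 (adjusted p = 0.00075) and Irf8 (adjusted p = 0.00161), 2 of 8 against 13.5% of all genes. The other 6 had adjusted p values from 0.276 to 0.818.

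**Figure D2:**
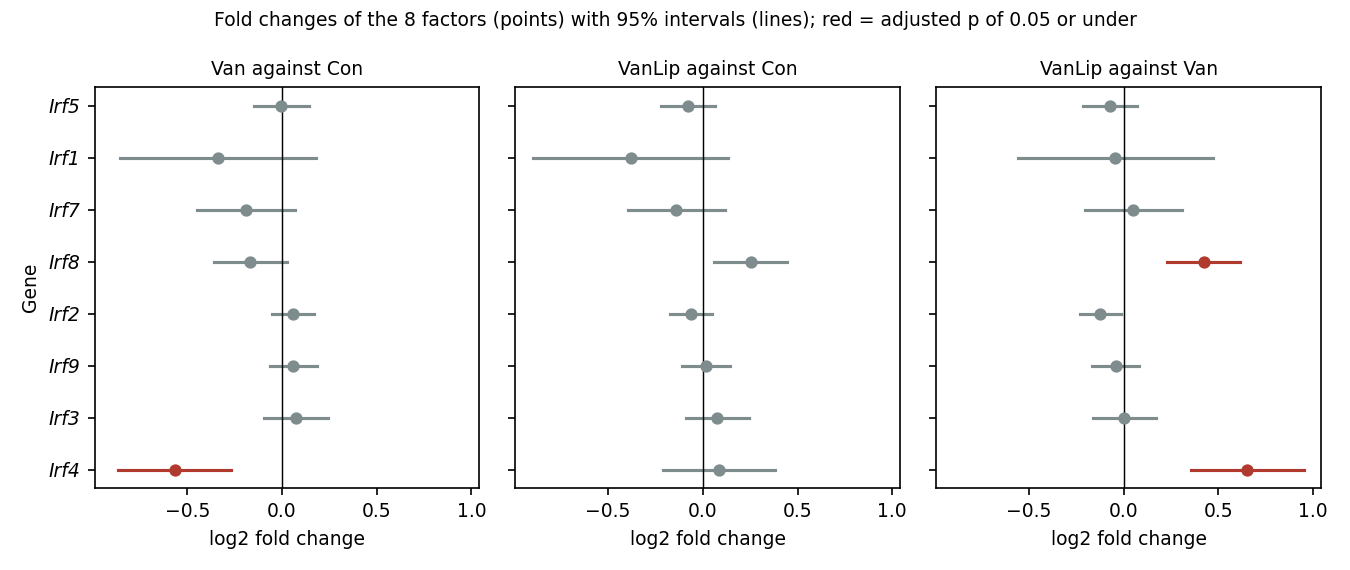
Log2 fold change of each factor (points) with its 95% interval (lines) in the 3 comparisons, red where the DESeq2 adjusted p was 0.05 or under. Red marks Irf4 at -0.57 in the left panel, and Irf8 at 0.42 and Irf4 at 0.65 in the right one.

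Irf4 and Irf8 were set beside each other and beside markers of other cells that carry them. Over the 9 libraries the normalised log2 counts of Irf4 and Irf8 had a Pearson r of 0.876, the highest of the 28 pairs of factors, while Irf2 ran opposite to both (r = -0.704 with Irf4 and -0.756 with Irf8). These libraries share their group structure, so the values describe the pattern only. The gene most like Irf4 among 12216 genes was Siglech (r = 0.972), a lectin of plasmacytoid dendritic cells, ahead of the leukotriene receptor gene Cysltr1 (0.966) and the interferon-induced membrane protein gene Ifitm6 (0.962). Siglech was 1.30, 1.52 and 1.44 FPKM in Con, 0.622, 1.11 and 0.609 FPKM in Van and 1.69, 1.01 and 1.25 FPKM in VanLip. Those levels are low, and the gene was called lower in Van than in Con (log2 -0.89, DESeq2 adjusted p = 0.0474) and higher in VanLip than in Van (0.85, adjusted p = 0.0299).

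Of 62 tested marker genes of 8 cell types, 1 was called higher and 7 lower in Van than in Con, where 2.27% and 2.06% of all genes were, 4 were called lower in VanLip than in Con, where 3.69% were, and 8 were called in VanLip against Van, all of them higher in VanLip, where 4.58% of all genes were. The set for VanLip against Van held Ccr2, Ly6c2, Cx3cr1 and Eno3 of monocytes, Sdc1 and Tnfrsf13b from the plasma cell list, Siglech, and Clec9a of conventional dendritic cells. Ccr2, the receptor by which classical monocytes leave the marrow, was 158.6 to 173.4 FPKM in Con, 70.4 to 98.2 in Van and 156.1 to 256.3 in VanLip, with VanLip 1 again the highest. Vcan of the same classical monocyte list was the gene called higher in Van than in Con (log2 1.54, DESeq2 adjusted p = 0.0122), at 2.62 to 5.23 FPKM in Con, 7.68 to 15.6 in Van and 6.13 to 14.4 in VanLip. In that list 3 of 6 genes lay above 0 for Van against Con, with a median of 0.09. Clec9a was 2.23 to 3.03, 1.11 to 1.83 and 1.99 to 2.74 FPKM, and Tnfrsf13b 17.96 to 19.6, 13.1 to 14.3 and 20.4 to 25.8 FPKM. Siglech was the 1 plasmacytoid marker of 8 called in any comparison, and Cox6a2 from that list was 2.23 to 2.88 FPKM in Con, 3.01 to 3.59 in Van and 2.33 to 3.10 in VanLip. Ccr9 from the same list was 0.470 to 0.665 FPKM in Con, 0.294 to 0.358 in Van and 0.492 to 0.683 in VanLip. For Van against Con, 6 of these 8 genes lay below 0, with a median of -0.39. At an unadjusted p under 0.05 (DESeq2) 3 were lower, where 11.1% of all genes passed in either direction. The conventional dendritic cell marker Xcr1 was 0.532 to 0.672 FPKM in Con, 0.307 to 0.368 in Van and 0.336 to 0.462 in VanLip, and was called lower than in Con in both Van (log2 -0.85, DESeq2 adjusted p = 0.00897) and VanLip (-0.73, adjusted p = 0.0182). Cd209a and Mgl2 of that list were called lower in VanLip than in Con (-0.73 and -1.42, DESeq2 adjusted p = 0.028 and 0.000282), and for VanLip against Van their values were -0.54 and -0.82 (adjusted p = 0.119 and 0.0702). Summed over whole lists, the 6 classical monocyte markers gave 875.4 to 1127, 783.5 to 1412 and 1161 to 1871 FPKM in Con, Van and VanLip, with the maximum in VanLip 1, the library highest for Irf4 and Irf8. The 8 nonclassical markers gave 2667 to 3056, 2641 to 3534 and 2539 to 3384 FPKM. The 6 plasma cell markers gave 58.6 to 74.6, 46.5 to 54.5 and 60.6 to 81.3 FPKM. The 8 plasmacytoid markers gave 37.6 to 41.4, 35.4 to 41.9 and 31.6 to 44.9 FPKM, the 9 conventional dendritic cell markers 66.5 to 84.6, 64.1 to 70.9 and 56.2 to 61.0 FPKM, and the 8 B cell markers 16.7 to 18.2, 14.0 to 15.6 and 13 to 17.9 FPKM. The plasmacytoid sum was carried mostly by Tcf4 and Runx2. In the B cell sum Van lay below Con without overlap. The 10 T and NK cell markers gave 12.7 to 17.0, 9.59 to 13.9 and 7.56 to 15.8 FPKM. The 8 neutrophil markers gave 3.30 to 4.81, 0.971 to 3.63 and 1.23 to 2.68 FPKM, so VanLip lay below Con without overlap, and in that list Retnlg was called lower in Van than in Con (log2 -2.60, DESeq2 adjusted p = 0.0224) and Ngp lower in VanLip than in Con (-1.94, adjusted p = 0.0373). Of these sums, only that of the plasma cell markers had Van below all libraries of both other groups, and it was carried by Igj and Tnfrsf13b. In that list 4 of 6 genes lay below 0 for Van against Con, and Derl3 was 0.362 to 0.537 FPKM in Con and 0.530 to 0.791 FPKM in Van. For the same comparison, genes below 0 were 8 of 8 for B cells, 8 of 10 for T and NK cells and 7 of 9 for conventional dendritic cells. They were 6 of 7 tested for neutrophils and 3 of 8 for nonclassical monocytes. Medians in this order were -0.41, -0.64, -0.18, -0.72 and 0.08, beside -0.01 over all genes with an adjusted p. The conventional dendritic cell sum was lowest in VanLip. Cd209a in that sum was 19.2 to 33.2 FPKM in Con, 17.45 to 27.3 in Van and 11.4 to 18.95 in VanLip. Clec9a of the same list was called higher in VanLip than in Van. The part of such cells, or of a shift in monocyte subsets, in the Irf4 and Irf8 differences was not tested.

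**Figure D3:**
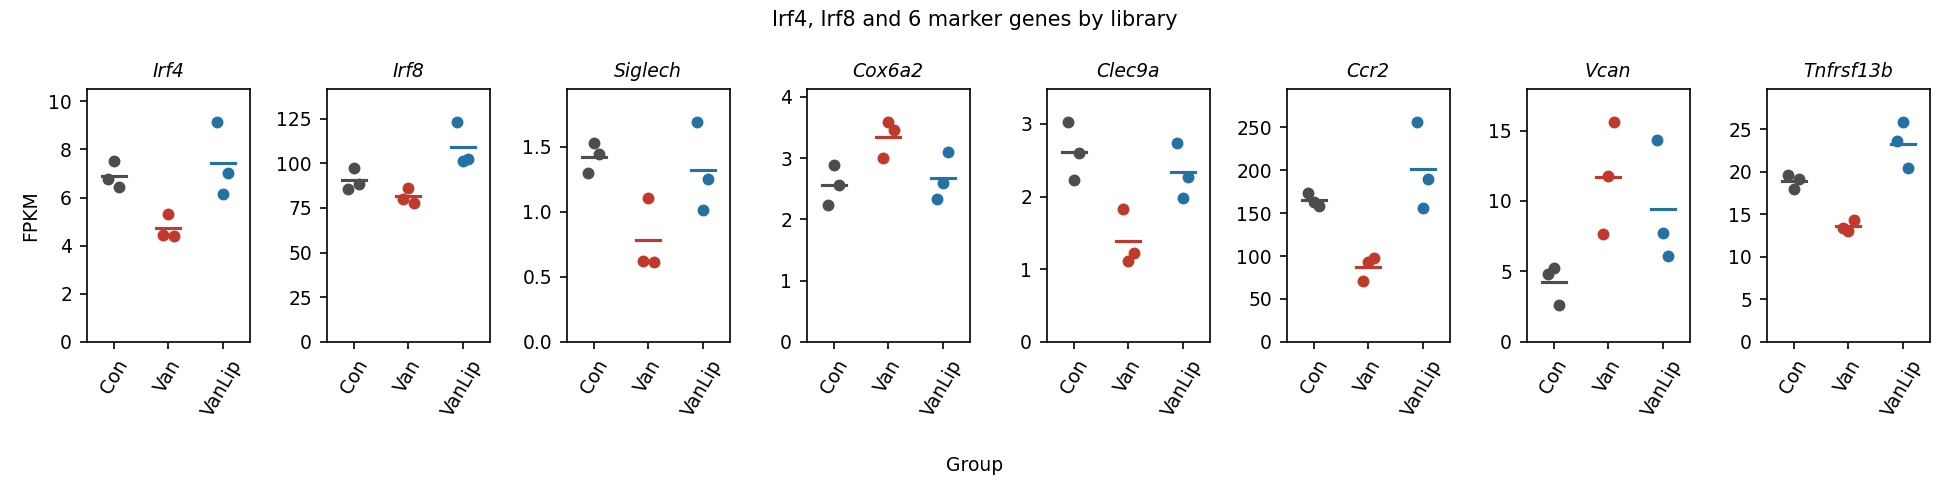
FPKM (each axis from 0) of Irf4, Irf8 and 6 marker genes in each library, with bars at group means. Irf4, Siglech, Clec9a, Ccr2 and Tnfrsf13b are lowest on average in Van, while Vcan and Cox6a2 are highest there, and the highest Irf4, Irf8, Siglech and Ccr2 values are in the same VanLip library.

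Irf4 was set beside Irf5, its rival for MYD88, and beside Irf8, its relative at PU.1 sites, as ratios of FPKM. The Irf4 to Irf5 ratio was 0.0342, 0.0380 and 0.0328 in Con, 0.0217, 0.0277 and 0.0217 in Van and 0.0464, 0.0312 and 0.0411 in VanLip. Van lay below both other groups without overlap. On the log2 scale Van differed from Con by -0.57 and VanLip from Van by 0.73, each with p = 0.1 in a two-sided exact permutation test, the smallest value that 3 libraries against 3 can give (adjusted p = 0.2 over 6 exact tests). Because Irf5 differed little between groups, this ratio follows Irf4. The Irf4 to Irf8 ratio was 0.0790, 0.0774 and 0.0729 in Con, 0.0553, 0.0614 and 0.0567 in Van and 0.0742, 0.0605 and 0.0685 in VanLip. It was lower in Van than in Con in every library (log2 -0.40, exact permutation p = 0.1, adjusted p = 0.2). VanLip overlapped both groups in this ratio (log2 0.23 against Van and -0.18 against Con, exact permutation p = 0.2 for each, adjusted p = 0.24).

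**Figure D4:**
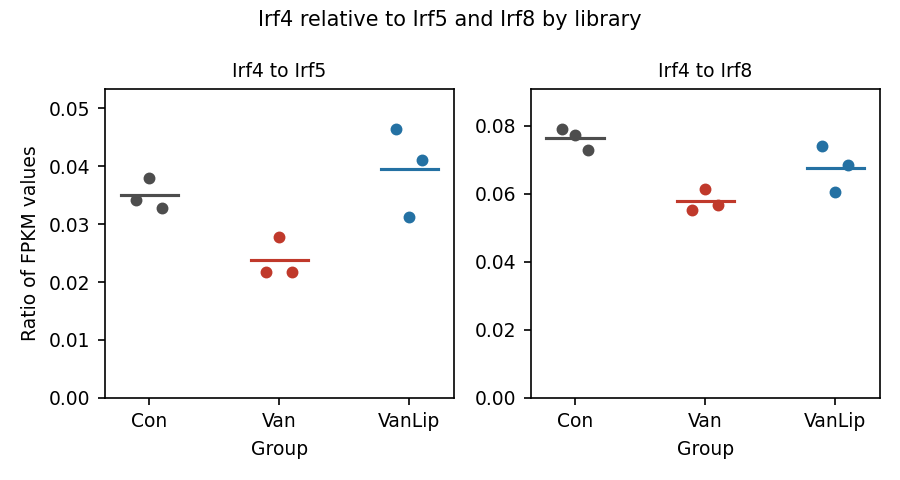
Ratio of Irf4 to Irf5 and of Irf4 to Irf8 (FPKM over FPKM, axes from 0) in each library, with bars at group means. For Irf4 to Irf5 the Van libraries (0.0217 to 0.0277) lie below all others, and for Irf4 to Irf8 the VanLip libraries (0.0605 to 0.0742) overlap both other groups.

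Irf5 and Irf3, the factors switched on after transcription by MYD88 and by TBK1, differed little. Irf5 was 198.1, 198.4 and 195.8 FPKM in Con, 203.9, 191.4 and 203.2 in Van, and 197.2, 196.6 and 171.0 in VanLip. Its 3 log2 differences lay between -0.08 and -0.00, and the widest of their 95% intervals reached -0.22 (DESeq2, adjusted p from 0.643 to 0.994). Irf3 was 26.3, 28.2 and 29.1 FPKM in Con, 28.5, 29.1 and 30.3 in Van, and 26.3, 31.4 and 29.7 in VanLip. All groups overlapped for both genes. For Irf3 the log2 differences were 0.08, 0.08 and 0.00 for Van against Con, VanLip against Con and VanLip against Van (DESeq2, adjusted p from 0.706 to 0.996).

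Of the 22 sensors, adaptors and kinases that activate the factors, 1 was called between Van and Con, 1 between VanLip and Con and 3 between VanLip and Van, where 4.34%, 6.67% and 9.86% of all genes were. Mavs, the adaptor of the RIG-I-like receptors, was the 1 gene called for Van against Con, where 2.27% of all genes were called higher. It was at 8.73, 12.6 and 9.77 FPKM in Con and 13.1, 16.0 and 15.1 in Van (log2 0.51, DESeq2 adjusted p = 0.00627). This call was lost with edgeR, in the 3 limma fits and without Con 1, Con 3, Van 2 or Van 3. A fit of the 2 groups also called Slc15a4 higher and Ifih1 and Tlr9 lower in Van, where 9.23% of all genes were called. Ifih1 was called lower without VanLip 1 or VanLip 3 too, and Tlr9 without VanLip 3. Slc15a4 was called higher without VanLip 1, and Ticam1 without Con 1. Mavs was called lower again in VanLip than in Van (-0.51, adjusted p = 0.00227), also with edgeR but not with limma. Tlr8, an endosomal receptor whose signal reaches IRF5 and IRF7, was 45.7 to 47.6 FPKM in Van and 33.1 to 35.9 in VanLip, a log2 difference of -0.43 (DESeq2, adjusted p = 5.15e-06), a call kept in all the alternatives run. It was also called lower in VanLip than in Con (-0.29, adjusted p = 0.00931), but not with edgeR, limma or a fit of the 2 groups, nor without Con 1, Con 2 or VanLip 1. Myd88, the adaptor that IRF4 and IRF5 share, was higher in VanLip (67.3 to 67.9 FPKM) than in Van (53.8 to 56.2 FPKM), by 0.28 on the log2 scale (DESeq2, adjusted p = 0.00627), a call kept with edgeR and lost in 2 of the 3 limma fits and without Van 1 or Van 2. Without VanLip 3, 6 of the 22 were called lower in VanLip than in Con, and 5 in VanLip than in Van, where 4.62% and 5.59% of all genes were. The median of the list was -0.11, -0.08 and -0.05 in the 3 comparisons, beside -0.01, 0.01 and 0.01 over all genes with an adjusted p.

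Irf7, itself strongly induced by interferon, was 111.4, 113.6 and 114.1 FPKM in Con and 102.6, 91.3 and 99.7 FPKM in Van. The Van libraries were all lower, by a log2 value of -0.19 (SE 0.13, 95% interval -0.45 to 0.07), which was not called in the fit of all 9 libraries (DESeq2, adjusted p = 0.559). In a fit of the Con and Van libraries alone it was called with the same difference (DESeq2, adjusted p = 0.0353), where 9.23% of all genes were called. In VanLip it was 76.2, 93.6 and 116.6 FPKM, so VanLip 1 was the lowest and VanLip 3 the highest of the 9 libraries. VanLip against Con gave -0.14 (DESeq2, adjusted p = 0.639), and -0.32 without VanLip 3 (adjusted p = 0.0089), where 8.15% of all genes were called. VanLip against Van was 0.05 (adjusted p = 0.903) and -0.13 without VanLip 3 (adjusted p = 0.424).

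The genes most like Irf7 over the 9 libraries were all interferon-induced, namely Oas3 (r = 0.974), Ifit3b (0.953) and Ifit3 (0.947). Ifit3, a reporter of ISGF3 activity, was 25.0, 28.5 and 30.4 FPKM in Con, 19.4, 19.5 and 16.3 in Van and 13.2, 16.7 and 38.0 in VanLip. As for Irf7, VanLip 1 was the lowest and VanLip 3 the highest library. Irf9, the DNA-binding subunit of ISGF3, did not share this spread, at 38.7, 37.4 and 37.1 FPKM in Con, 37.6, 38.2 and 40.9 in Van, and 37.8, 36.1 and 37.6 in VanLip. Its log2 differences were 0.06, 0.02 and -0.04 (DESeq2, adjusted p from 0.787 to 0.938). Stat2, which encodes a partner of IRF9 in that complex, was lower in VanLip (19.7, 19.6 and 27.5 FPKM) than in Con (33.0, 28.6 and 30.9 FPKM), with a log2 difference of -0.49 (DESeq2, adjusted p = 0.00545). This call was lost with edgeR, with limma and without Con 1 or VanLip 2.

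Among the 28 ISGF3 target genes, 25 had a value below 0 for Van against Con, and 2 were called lower, Ddx60 (log2 -0.68, DESeq2 adjusted p = 0.0159) and Mx1 (-0.41, adjusted p = 0.0403), against the 2.06% of all genes. The median was -0.22, beside -0.01 over all genes. The number called depended on the fit. With edgeR, with the 3 limma fits and without Con 3, Van 2 or Van 3 neither Ddx60 nor Mx1 was called, nor any other gene of the list. Mx1 was also lost without Con 1 or Van 1, and without Con 2 only Zbp1 was called. The number was 10 without VanLip 3, where 3.08% of all genes were called lower, 5 without VanLip 1 (3.07%), 3 without VanLip 2 (2.6%), and 11 in a fit of the 2 groups alone, where 4.5% were. For VanLip against Con, 25 of 28 again lay below 0 (median -0.19), with 0 called by DESeq2 or edgeR and 3 at an unadjusted p under 0.05, where 13% of all genes were. Without VanLip 3, 19 of the 28 were called lower in VanLip than in Con (median -0.40), where 4.62% of all genes were called lower, while without VanLip 1 the median was -0.08 and without VanLip 2 it was -0.11. For VanLip against Van, 0 were called by either tool, 3 had an unadjusted p under 0.05 (15.5% of all genes) and the median was 0.05, and without VanLip 3 the median was -0.16 with 7 called lower, where 5.59% of all genes were. Without VanLip 1 that median was 0.22 with 1 gene called higher, Zbp1, where 3.25% of all genes were. Mx1 was called higher in VanLip than in Van with TMM library sizes, with the replicate block, with protein-coding genes only and without VanLip 2, and Dhx58 was called higher without Con 1. What set VanLip 1 and VanLip 3 apart was not tested.

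Irf1, the activator induced by interferon gamma, was the most variable factor among Con mice, at 218.4, 121.0 and 129.7 FPKM. It was 140.2, 118.6 and 112.8 FPKM in Van and 128.7, 126.0 and 113.8 FPKM in VanLip, and no library of either group reached the level of Con 1. The log2 differences from Con were -0.34 for Van (SE 0.26, DESeq2 adjusted p = 0.637) and -0.38 for VanLip (SE 0.26, adjusted p = 0.469). Without Con 1 they were -0.0049 and -0.05. VanLip against Van was -0.04 (95% interval -0.56 to 0.47). The intervals of Irf1 were the widest of the 8 factors in all 3 comparisons.

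Con 1 was also the highest library for 20 of the 24 IRF1 and interferon gamma target genes. For Van against Con all 24 lay below 0 (median -0.28), and 1 was called, the guanylate-binding protein gene Gbp3 (34.1, 29.0 and 31.0 FPKM in Con against 22.4, 22.6 and 23.0 in Van, log2 -0.48, DESeq2 adjusted p = 0.00609), where 2.06% of all genes were called lower. Without Con 1 the median was -0.14 and Gbp3 was no longer called, although its other 2 Con libraries stood above all 3 Van libraries. The Gbp3 call was also lost without Van 2, with edgeR and with limma. Without Con 2 the number called was 3, with Gbp4 and Gbp7, where 233 of 13516 genes were called lower. It was 2, with Gbp7, in a fit of the 2 groups and without VanLip 3, where 4.5% and 3.08% of all genes were called lower. For VanLip against Con, 23 lay below 0 (median -0.38) and 4 were called lower, where 3.69% of all genes were. These were Ciita, the master activator of MHC class II genes (-1.06, DESeq2 adjusted p = 9.83e-06), Gbp3 (-0.50, adjusted p = 0.0024), the immunity-related GTPase gene Igtp (-0.62, adjusted p = 0.033) and Nlrc5, which activates MHC class I genes (-0.53, adjusted p = 0.0423). Without Con 1 only Ciita was called and the median was -0.17, where 307 of 17900 genes were called lower. Without VanLip 1 or VanLip 2 Ciita and Gbp3 were called (medians -0.28 and -0.33), where 3.41% and 2.61% of all genes were called lower. Without VanLip 3 the number was 8 (median -0.57), where 4.62% of all genes were called lower. With edgeR only Ciita was called, and it was lost in 2 of the 3 limma fits. Ciita was 18.7, 11.4 and 13.1 FPKM in Con, 12.9, 11.6 and 9.60 in Van and 5.67, 6.50 and 8.83 in VanLip, so the VanLip libraries lay below all others with or without Con 1. It was also the 1 gene of this list called for VanLip against Van (-0.71, DESeq2 adjusted p = 0.00675), where 5.28% of all genes were called lower. That call was lost with edgeR, with limma and without Van 1 or VanLip 1. Without VanLip 3 the number called for VanLip against Van was 3, where 5.59% of all genes were called lower.

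Irf2, the constitutive antagonist of IRF1, was 59.1, 57.8 and 59.5 FPKM in Con, 64.4, 60.3 and 60.6 in Van and 56.3, 57.4 and 57.3 in VanLip. It ran in a narrow band, highest in Van and lowest in VanLip, with no overlap between the groups on the FPKM scale. The normalised counts of Van and Con did overlap. VanLip against Van gave a log2 difference of -0.12 (SE 0.06, 95% interval -0.23 to -0.01), which did not pass (unadjusted p = 0.0274, DESeq2 adjusted p = 0.162). At an unadjusted p under 0.05, it joined Irf4 and Irf8 as 3 of 8 factors, against 15.5% of all genes. The same 3 factors had no overlap of normalised counts between VanLip and Van, against 28.6% of all genes. Of the 3 genes for IRF2-binding corepressors, 0 were called in any comparison by edgeR or in the DESeq2 fit used throughout, and 1 had an unadjusted p under 0.05, Irf2bpl, for VanLip against Van (log2 0.40, DESeq2 adjusted p = 0.0534). Irf2bpl was called higher there with TMM library sizes, in a fit of the 2 groups, with protein-coding genes only and without Con 1, Con 3 or VanLip 3, and Irf2bp2 was called lower without VanLip 1.

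Among 19 partner factors of IRF4 and IRF8, Spi1, which encodes PU.1, was high and was not called in any comparison (280.8 to 319.9 FPKM in Con, 282.6 to 299.8 in Van and 308.1 to 353.3 in VanLip). For VanLip against Van 3 were called higher and 5 lower, where 4.58% and 5.28% of all genes were. Batf3, a partner of IRF8 in conventional dendritic cells, was higher in VanLip (14.2 to 20.9 FPKM) than in Van (11.3 to 14.2 FPKM), by 0.45 (DESeq2, adjusted p = 0.0283), as were Ikzf3 (0.80, adjusted p = 0.00961) and Tcf3 (0.24, adjusted p = 0.0407). These 3 calls were lost with edgeR, with limma, with the replicate block and without Van 3 or VanLip 3. With the VanLip fragments thinned to the depth of the other groups Batf3 and Tcf3 were not called, Batf3 was also lost in a fit of the 2 groups and without Van 1 or VanLip 1. Tcf3 was also lost without Con 2, Van 1, Van 2 or VanLip 2, and Ikzf3 with protein-coding genes only and without Con 1, Van 2 or VanLip 2. Cebpa, whose product IRF8 can restrain in myeloid progenitors, went the other way from Irf8. It was 46.9, 46.2 and 42.9 FPKM in Con, 51.9, 65.7 and 75.1 in Van and 36.2, 35.9 and 33.5 in VanLip, higher in Van than in Con (log2 0.49, DESeq2 adjusted p = 0.00325) and lower in VanLip than in Van (-0.87, adjusted p = 8.45e-11). Prdm1, encoding BLIMP1, a repressor that IRF4 induces in plasma cells, did not follow Irf4: it was 8.01 to 8.56 FPKM in Van and 3.82 to 4.83 in VanLip (-0.92, DESeq2 adjusted p = 3.21e-06). Runx1 (-0.33, adjusted p = 0.000445), Id2 (-0.36, adjusted p = 0.0194) and Etv6 (-0.30, adjusted p = 0.0195) were also lower in VanLip than in Van. The Id2 call was lost without Van 1, VanLip 2 or VanLip 3, and the Etv6 call without Van 1 or VanLip 1. For VanLip against Van the Cebpa call held in all the alternatives, edgeR kept Prdm1 and Runx1 with it, and 2 of the 3 limma fits kept Cebpa alone. For VanLip against Con, Prdm1 (-0.92, adjusted p = 6.06e-06) and Cebpa (-0.38, adjusted p = 0.0289) were called lower, and for Van against Con, Cebpa and Id2 (0.35, adjusted p = 0.0408) were called higher. Of these, edgeR kept only Prdm1, a call that 2 of the 3 limma fits lost. For Van against Con limma lost both calls, Cebpa was also lost without Con 3, and Id2 without any 1 of the Con libraries, Van 1 or Van 3. Ikzf3 was called lower in Van in a fit of the 2 groups and without Con 2, Van 1, VanLip 1 or VanLip 2. Batf3 was called lower in that fit and without VanLip 2, and Klf4 was called higher in that fit. The Cebpa call against Con was also lost in VanLip with limma, TMM library sizes and the replicate block, and without Con 1, Con 2, Van 2, VanLip 2 or VanLip 3. The medians of this list were 0.01, -0.01 and -0.07.

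Among 13 interferon receptors and JAK-STAT genes, which relay the signals that induce Irf1, Irf7 and Irf8, 0 were called for Van against Con by edgeR or in the DESeq2 fit used throughout, with 2 at an unadjusted p under 0.05, where 11.1% of all genes were. Other DESeq2 fits called genes lower there, Stat2 and Usp18 in a fit of the 2 groups, Jak2 without Van 1 and Stat2 without VanLip 3. Socs3, a feedback inhibitor of STAT3, was 67.0 to 92.9 FPKM in VanLip against 49.9 to 56.7 in Van and 48.3 to 60.7 in Con, higher by 0.54 than in Van (DESeq2, adjusted p = 0.000235) and by 0.53 than in Con (adjusted p = 0.000513). Stat3 was lower in VanLip (79.7 to 90.5 FPKM) than in Van (103.0 to 115.7 FPKM), with -0.38 (adjusted p = 2.39e-06), and than in Con (-0.30, adjusted p = 0.000653). Ifngr1, a receptor chain for interferon gamma, was called higher in VanLip than in Con (0.19, adjusted p = 0.0114), 1 of 2 genes of the list with Socs3, where 2.98% of all genes were called higher. The Ifngr1 call was lost with edgeR, limma, the replicate block and a fit of the 2 groups, and without Con 1, Con 2, VanLip 1 or VanLip 2. The Socs3 and Stat3 calls were kept with edgeR in both comparisons, limma lost both for VanLip against Con, and 2 of its 3 fits lost Socs3 for VanLip against Van. Without VanLip 3, 4 of the 13 were called lower than in Con and 2 lower than in Van, where 4.62% and 5.59% of all genes were. The medians of the list were 0.02, -0.06 and -0.04.

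**Figure D5:**
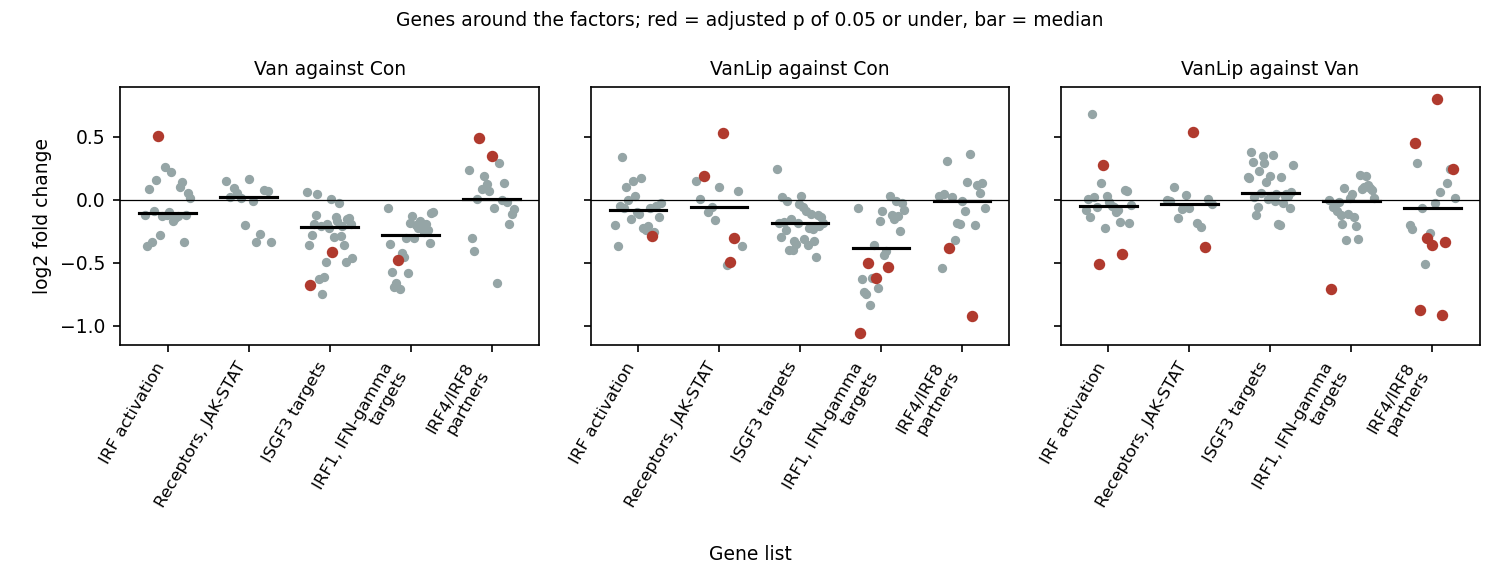
Log2 fold change of each gene (points) of 5 lists around the factors in the 3 comparisons, with bars at list medians and red where the DESeq2 adjusted p was 0.05 or under. The ISGF3 and IRF1 target lists lie mostly below 0 for Van against Con (medians -0.22 and -0.28) and VanLip against Con (-0.19 and -0.38) and near 0 for VanLip against Van.

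The genes most like the other factors over the 9 libraries were of mixed kinds. Irf8 was closest to Lsm8, Rbak and Chst12 (r from 0.955 to 0.962), and Irf2 to the kinase gene Lyn (0.968), Gpd2 (0.947) and Usp40 (0.946). Irf1 was closest to the tetraspanin gene Cd53 (0.951), Lpp (0.943) and Mid1 (0.928). For Irf3, Irf5 and Irf9 the closest genes were Trim27 (0.936), Atp9b (0.914) and Tpd52 (0.921). With 9 libraries and 12216 genes searched, such values are a description of these samples.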

How the data were processed

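Splenic monocyte RNA from 9 mice was sequenced, 3 libraries per group, and groups were taken from the sample titles. The authors aligned paired reads to GRCm38 with HISAT2 2.2.1 and SAMtools 1.9, and deposited FPKM values per gene estimated with StringTie 2.1.3. A second deposited table held expected counts, derived by the authors from these estimates with tximport 1.26.1, which need not be whole and are not normalised. Totals were 43070361 to 61383806 expected counts in Con and Van and 170503470 to 184720704 in VanLip. The commonest low count was 2.00 in VanLip and 1.33 or 2.67 in the others, which under the 75 bases assumed by tximport corresponds to reads of 150 and 100 bases.

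Expected counts were rounded and tested in R 4.3.3 with DESeq2 1.42.0 (Wald test with its default size factors, 1 fit of the 9 libraries on group alone). Benjamini-Hochberg adjustment ran over all genes, the threshold for a call was an adjusted p of 0.05, and tests are two-sided. FPKM values were used for levels, ratios (tested by exact permutation with scipy 1.17.1) and limma 3.58.1 fits. Replicates are separate mice per the series description. Alternatives were edgeR 4.0.16, TMM sizes, a filter of 10 counts in 3 libraries, fits of 2 groups, a replicate block, counts converted to fragments, VanLip fragments thinned to 20146290, limma on quantile-normalised log2 FPKM (pseudocount 1 or 0.1, or only genes whose mean FPKM reached 1), protein-coding genes only, and leaving out each library. The scripts were tested on simulated data.

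All 8 factors are named. The rule for the lists was up to 6 called genes per list and comparison. The partner factors for VanLip against Van exceeded it, with all 8 called genes named. Up to 3 genes most like a factor are named, by Pearson r of log2(normalised count + 1) among genes with a mean of at least 100. Spi1, Irf2bpl, the list genes called only in alternative fits and the marker genes other than Siglech were named outside these rules, after their values were seen. The factors, gene lists and tests were chosen with earlier results of these data known.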

Additional observations from a re-analysis of the deposited data

How the results depend on the processing

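Of 480 alternative values of the factors' log2 fold changes, 442 kept their sign and their side of the threshold, 11 lost a call, 2 gained one and 25 changed sign. For Van against Con, where 1 factor was called, the number was 0 with edgeR and with each of the 3 limma fits and 2 in a fit of the 2 groups (Irf4 and Irf7), and it ranged from 0 to 1 over libraries left out. For VanLip against Con it ranged from 0 to 1, with Irf7 called without VanLip replicate 3. For VanLip against Van, where 2 were called, it was 0 in the limma fits with pseudocounts of 1 and 0.1 and 1 in the limma fit of genes with a mean FPKM of at least 1 (Irf4), and it was 2 without any 1 library. For any difference among the groups it was 0 with edgeR and the 3 limma fits, and 2 to 3 over libraries left out. Calls over all genes also fell under those tools, to 204, 300 and 855 with edgeR and to 92, 237 and 688 with limma and a pseudocount of 1, for Van against Con, VanLip against Con and VanLip against Van, from 803, 1104 and 1777.

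The Irf4 value for Van against Con lost its call at -0.564 with edgeR and at -0.48, -0.554 and -0.48 in the limma fits, and ranged from -0.643 to -0.494 over libraries left out. For VanLip against Van, Irf4 lost its call at 0.54 and 0.62 (limma, pseudocounts 1 and 0.1), and Irf8 at 0.386, 0.39 and 0.386 in the 3 limma fits. Irf7 gained a call for Van against Con at -0.189 in the fit of 2 groups, and for VanLip against Con ranged from -0.323 to -0.0067 over libraries left out. The values that changed sign were small. They were Irf9 for VanLip against Con in the limma fits (-0.0684, -0.0701 and -0.0684) and over libraries left out (-0.0156 to 0.0491), Irf7 for VanLip against Van in the limma fits (-0.0727, -0.0736 and -0.0727) and over libraries left out (-0.133 to 0.184), and Irf3 for VanLip against Van with the count filter (-0.000604), the protein-coding genes only (-0.0043), the limma fits (-0.0285, -0.0295 and -0.0285) and over libraries left out (-0.0476 to 0.0575). Over libraries left out, Irf5 for Van against Con ran from -0.0253 to 0.0342, Irf1 for VanLip against Van from -0.1 to 0.0703, and Irf4 for VanLip against Con from -0.102 to 0.215. The cause of these changes was not tested.

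With the replicate block, Irf3 for VanLip against Van was -0.000499, and the numbers of factors called were the same (1, 0, 2 and 2). Deviations of same-numbered libraries correlated between -0.065 and 0.123, so the numbers were treated as names only. TMM sizes split the all-gene calls into 657 higher and 500 lower for VanLip against Con (DESeq2 sizes gave 494 and 610) and into 1013 and 809 for VanLip against Van (826 and 951). No scaling moved the median of all genes by 0.1 or more on the log2 scale. The depth and read length of VanLip limit every comparison that uses this group, and 3 libraries per group limit the precision of each value.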
